A study of Mus musculus with 8 samples.

Results

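The 10 genes described here encode the enzymes, and a helper protein of 5-lipoxygenase, that release arachidonic acid and turn it into leukotrienes and prostanoids: Pla2g4a, Alox5, Alox5ap, Lta4h, Ltc4s, Ptgs1, Ptgs2, Ptges, Hpgds and Tbxas1. They were chosen by name, and all 10 were found among the 22597 genes of the count table. All 10 also passed the filter on low counts, so none was lost before testing. The RNA was that of mouse lung interstitial macrophages, obtained by cell sorting, which lie in the tissue outside the air spaces.

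In this pathway a phospholipase frees arachidonic acid from membranes, and the fatty acid then enters a lipoxygenase or a cyclooxygenase branch. The lipoxygenase branch yields an unstable epoxide, leukotriene A4, that is either hydrolysed to leukotriene B4, which attracts neutrophils, or joined to glutathione to give the cysteinyl leukotrienes, which contract airways and make vessels leak. The cyclooxygenase branch yields prostaglandin H2, from which separate synthases make prostaglandin E2, prostaglandin D2 or thromboxane A2. Macrophages are a known source of lipids of both branches. Transcript levels, which were measured here, are not levels of the lipids.

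The Tgfbr2_KO group held 4 libraries (KO 1 to 4) from recipients of bone marrow of CD45.2 Lyz2Cre Tgfbr2 fl/fl donors, in which Cre is made in myeloid cells from Lyz2 and cuts out the floxed stretch of Tgfbr2, a receptor that TGF-β needs to signal. The WT group held 4 libraries (WT 1 to 4) from recipients of marrow of CD45.2 Tgfbr2 fl/fl donors without Cre. In both groups the recipients were female C57BL/6 CD45.1/CD45.2 IMDTR mice (the protocol also writes Cx3cr1-DTR), which carry the diphtheria toxin receptor, and they were lethally irradiated with the thorax shielded. After 1 month they received 50 ng of diphtheria toxin, and the macrophages were taken 10 days later. The protocol gives the age at irradiation as 18 weeks, whereas the age label gives 12 to 16 weeks. Cre occurred only in the Tgfbr2_KO donors, so effects of Cre and of receptor loss cannot be told apart. The labels do not say whether the sorted cells came from donor or recipient, nor whether each library was a separate mouse, so the p-values cover the spread among these 8 libraries alone, and that spread may be technical.

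Gene counts summed to 19092800 to 27124400 per Tgfbr2_KO library and to 15597300 to 37654100 per WT library. The floor used here, 3 counts, was 0.08438 to 0.1774 CPM, the count relative to the TMM-scaled library size. Transcripts of other lung cells set KO 1, WT 1 and WT 2 apart from the other 5 libraries. Sftpc, the surfactant gene of alveolar type 2 cells, was at 2810 CPM in KO 1 and at 1780 and 1590 CPM in WT 1 and WT 2, against 67.9 to 95.4 CPM in KO 2 to 4 and 103 and 101 CPM in WT 3 and WT 4. These 3 libraries are called lung-rich. The split was made with the data in view and is no group of the study, and for each of the 10 genes a value within the lung-rich libraries and within the other 5 is given below. The summed CPM of 18 interstitial macrophage markers was lower in the lung-rich libraries, at 12400 in KO 1 and 17600 and 19200 in WT 1 and WT 2, against 26600 to 27000 in KO 2 to 4 and 28200 and 28700 in WT 3 and WT 4. All 18 were present in the table and none was at 0. That was also true of marker lists of other cell types read below, so it is no check of identity. Within the other 5 libraries 8 of the 18 were higher and 7 lower in Tgfbr2_KO libraries by the edgeR test described below. Of all genes tested there, 19.7% were higher and 18.7% lower. WT 3 and WT 4 lay close together, with count differences whose median chi-square was 1.87 times the value for counting noise, against 2.06 to 3.07 times among KO 2, KO 3 and KO 4. Whether they are independent samples is not stated. Tgfbr2 itself was counted at 424 to 576 CPM in Tgfbr2_KO libraries and 474 to 548 CPM in WT libraries. The count covers the whole gene, so it does not check deletion of the floxed part.

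The sequence before the transcription start was examined for letters that Smad proteins, the nuclear mediators of TGF-β receptors, and other factors are known to bind. RefSeq windows of GRCm38.p6, with 250 bases before and 50 after the start, were at hand for 9 of the 10 genes, in 10 windows. Alox5ap had none. Shown are Ltc4s and Tbxas1, which passed the test with the library sets accounted for, in opposite directions, and Alox5, whose genotype difference varied most between the sets. Capitals mark the Smad box (CAGAC, or GTCTG on the other strand), the GC box (GGGCGG), the AP-1 element (TGANTCA) and the TATA box (TATAAA, or TTTATA on the other strand), each searched on both strands.
Ltc4s, chr11:50238483-50238782, minus strand: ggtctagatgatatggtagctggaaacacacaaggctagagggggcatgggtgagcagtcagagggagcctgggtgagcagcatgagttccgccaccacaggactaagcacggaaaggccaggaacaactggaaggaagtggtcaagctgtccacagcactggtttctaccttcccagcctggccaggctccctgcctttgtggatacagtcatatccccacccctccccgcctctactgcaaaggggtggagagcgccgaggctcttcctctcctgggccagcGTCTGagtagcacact
Alox5, chr6:116461129-116461428, minus strand: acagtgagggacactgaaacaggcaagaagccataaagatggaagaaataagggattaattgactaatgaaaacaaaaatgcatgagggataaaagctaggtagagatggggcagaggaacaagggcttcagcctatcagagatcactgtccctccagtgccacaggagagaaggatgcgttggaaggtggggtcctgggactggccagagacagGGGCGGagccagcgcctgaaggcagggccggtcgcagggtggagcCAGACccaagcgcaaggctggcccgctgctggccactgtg
Tbxas1, chr6:38918736-38919035, plus strand: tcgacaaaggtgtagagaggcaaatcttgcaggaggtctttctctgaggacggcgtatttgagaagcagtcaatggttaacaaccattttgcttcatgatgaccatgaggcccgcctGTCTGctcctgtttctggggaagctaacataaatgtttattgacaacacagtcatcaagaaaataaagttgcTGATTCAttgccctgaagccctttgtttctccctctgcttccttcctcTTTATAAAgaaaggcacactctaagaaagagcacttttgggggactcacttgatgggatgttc
The Ltc4s window held a Smad box 34 bases after the start and none of the other 3 motifs. The Alox5 window held a GC box 35 bases before the start and a Smad box 10 bases after it. The Tbxas1 window held a Smad box 133 bases before the start, an AP-1 element 61 bases before it, and overlapping TATA box matches, on opposite strands, 13 and 11 bases before it. The RefSeq start used for Tbxas1 lies inside the gene as GENCODE M21 draws it. A Smad box was present in 9 of the 10 windows, against 49.6% of 32851 RefSeq promoter windows, and a short motif of this kind is a description of the letters, not of binding. The window without it was 1 of 2 windows of Pla2g4a. A GC box was in 3 windows (35.7% of all windows) and the AP-1 element in 1 (7.81% of all windows). The longer palindromic Smad element (GTCTAGAC) was in none of the 10, against 0.213% of all windows.

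Levels of the 10 genes were compared per kilobase of the longest coding transcript of GENCODE M21, as CPM per kb over the 8 libraries. Alox5ap, the membrane protein that presents arachidonic acid to 5-lipoxygenase, stood at the top with 160 ± 45.9 CPM per kb (SD, n = 8) and exceeded the next gene in 8 of 8 libraries. Ptgs2, the inducible cyclooxygenase, followed with 93.7 ± 14.0 CPM per kb, and Tbxas1, thromboxane A synthase, with 84.3 ± 24.4 CPM per kb. This pair was not separated beyond its spread, since Ptgs2 exceeded Tbxas1 in 6 of 8 libraries. Hpgds, the hematopoietic prostaglandin D synthase, at 37.2 ± 8.45, Alox5, which is 5-lipoxygenase, at 35.0 ± 10.7, and Ptgs1, the constitutive cyclooxygenase, at 29.9 ± 3.87 CPM per kb formed a middle range. Their order varied: Hpgds exceeded Alox5 in 3 of 8 libraries and Alox5 exceeded Ptgs1 in 5 of 8. Lta4h, leukotriene A4 hydrolase, was at 24.9 ± 2.02 CPM per kb, below Ptgs1 in 8 of 8 libraries. Ltc4s, leukotriene C4 synthase, was at 16.9 ± 9.47 CPM per kb and below Lta4h in 6 of 8 libraries. The exceptions were KO 2 and KO 3. Pla2g4a, cytosolic phospholipase A2, was at 10.6 ± 2.47 CPM per kb, and Ptges, the inducible microsomal prostaglandin E synthase, was the lowest at 1.65 ± 1.74 CPM per kb. The SD of Ptges exceeded its mean.

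**Figure D1:**
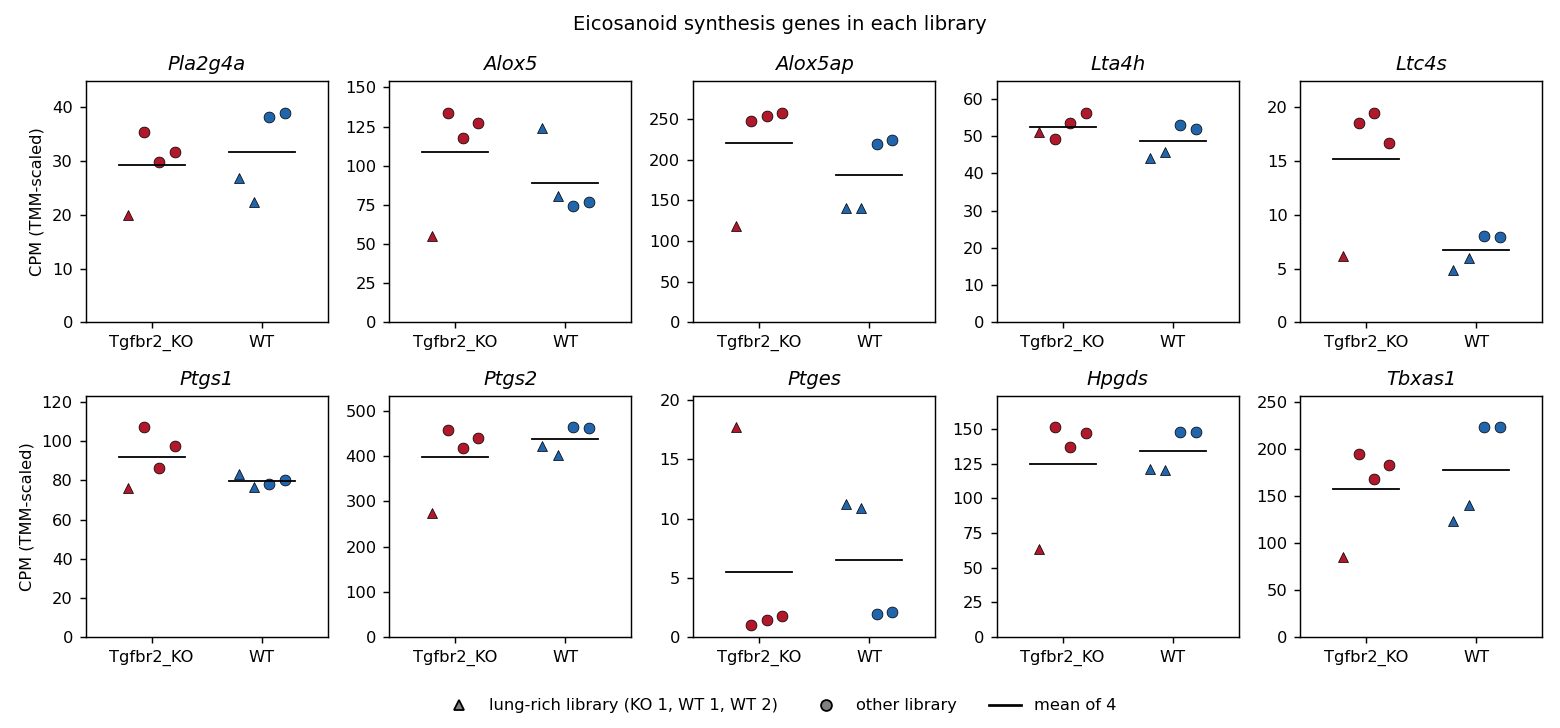
CPM of the 10 genes in each library, with Tgfbr2_KO libraries left of WT libraries in each panel. Triangles are the lung-rich libraries (KO 1, WT 1, WT 2), circles the other 5, and the line is the mean of 4. In Ltc4s the 3 Tgfbr2_KO circles sit between 16.7 and 19.5 CPM and the WT circles at 8.05 and 7.93 CPM, while the triangles lie between 4.91 and 6.18 CPM.

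Across all 8 libraries none of the 10 genes passed the test of genotype. By edgeR's quasi-likelihood test with Benjamini-Hochberg adjustment over 12750 genes and a threshold of 0.05, 0 of 10 were called, where 0.298% of all genes tested were called. One, Ltc4s, had an unadjusted p under 0.05, as it did with DESeq2, which also called 0 of 10 (3.39% of its tested genes were called). With limma voom 0 of 10 were called and 0 had an unadjusted p under 0.05 (0.251% of genes called). The median log2 fold change of the 10 genes was 0.001335, against -0.00834 over all genes tested. For none of the 10 genes did the Tgfbr2_KO libraries lie wholly above or wholly below the WT libraries, which was the case for 4.19% of genes above and 2.71% below. In simulated counts of this design, the same fit recovered 27.6% of genes changed by 1 on the log2 scale, so changes of that size could be missed.

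A second fit took the library set as a term, and is called set-adjusted here. In it Ltc4s was higher and Tbxas1 lower in Tgfbr2_KO libraries, and the other 8 genes did not pass, with log2 fold changes of -0.34 (Hpgds) to 0.20 (Alox5) and edgeR adjusted p of 0.05154 (Pla2g4a) to 0.8647 (Ptges). This compares with 8.59% of genes called higher and 7.89% called lower in that fit, so 1 call in each direction among 10 is close to the background. Within the 5 libraries that were not lung-rich, 4 genes were higher (Ltc4s, Alox5, Alox5ap and Ptgs1) and 2 lower (Pla2g4a and Tbxas1), where 19.7% of all genes were called higher and 18.7% lower. With WT 3 and WT 4 summed into 1 library there, an alternative chosen after seeing the data, the calls were 3 higher and 2 lower, against 13.4% and 12.9% of all genes, and Ptgs1 no longer passed (edgeR adjusted p = 0.1261). The genes are taken in turn below, in the order of the pathway.

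**Figure D2:**
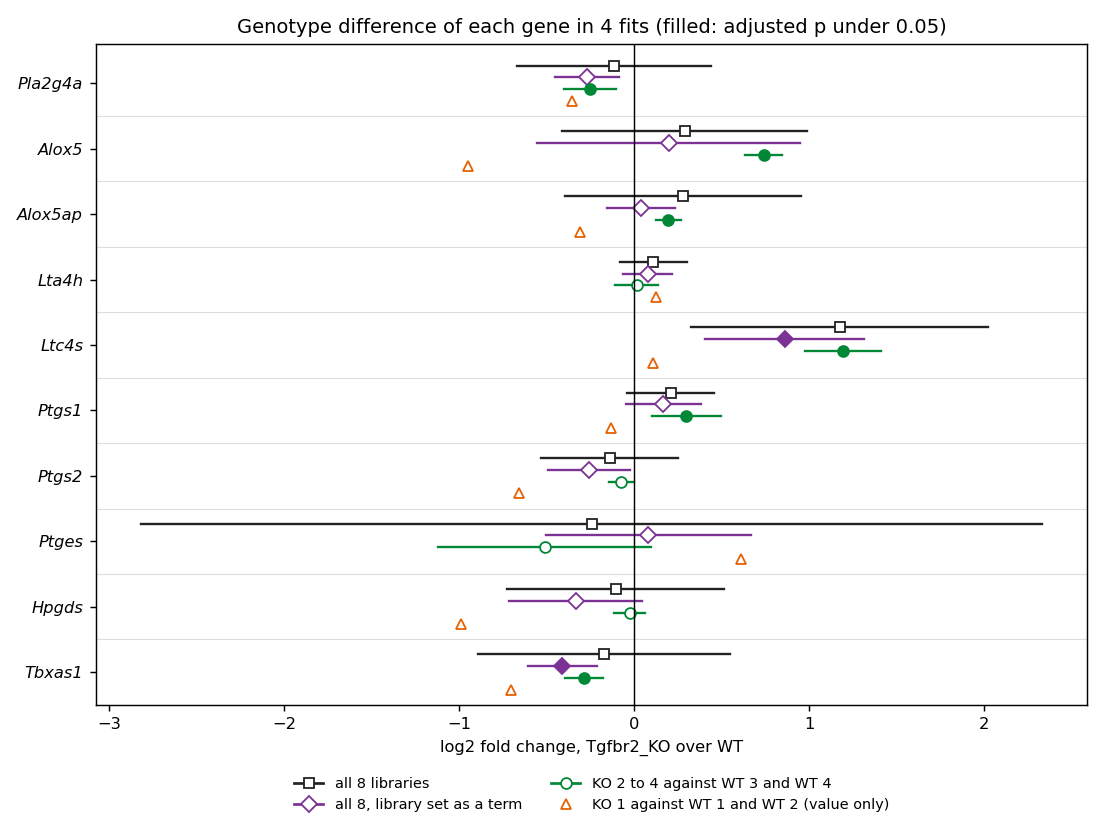
Log2 fold change, Tgfbr2_KO over WT, of each gene in 3 fits and as a value without a test in the lung-rich libraries; bars are 95% intervals and filled symbols have an adjusted p under 0.05. No square (all 8 libraries) is filled, and the triangles of Alox5, Alox5ap and Ptgs1 (KO 1 against WT 1 and WT 2) lie left of 0 while their circles (the other 5 libraries) lie right of 0.

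Pla2g4a (ENSMUSG00000056220, chr1:149829618-149961290, minus strand, GRCm38) frees arachidonic acid and so feeds both branches. It was at 20.0, 35.3, 29.8 and 31.6 CPM in KO 1 to 4, against 26.8, 22.3, 38.2 and 39.0 CPM in WT 1 to 4. The groups overlapped over all 8 libraries, but within each library set every Tgfbr2_KO library lay below every WT library. The log2 fold change was -0.11 ± 0.24 (SE) over all 8 libraries (edgeR adjusted p = 1) and -0.27 ± 0.08 in the set-adjusted fit (edgeR adjusted p = 0.05154). In the 5 other libraries it was -0.26 ± 0.07 and passed (edgeR adjusted p = 0.007346; 0.04979 with WT 3 and WT 4 summed), and in KO 1 against WT 1 and WT 2 the value was -0.36. The mean in Tgfbr2_KO libraries was 81.5% of the WT mean in the lung-rich set and 83.5% in the other, and the difference between the sets did not pass (-0.03, edgeR adjusted p = 0.9188).

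Alox5 and Alox5ap act together to make leukotriene A4. Alox5 (ENSMUSG00000025701, chr6:116410077-116461178, minus strand) was at 55.2, 134, 118 and 127 CPM in KO 1 to 4, against 124, 80.9, 74.6 and 77.0 CPM in WT 1 to 4. KO 1 was the lowest of the 8 libraries and WT 1 lay within the range of KO 2 to 4, so the groups overlapped. Over all 8 libraries the log2 fold change was 0.29 ± 0.30 (edgeR adjusted p = 0.9648). In the 5 other libraries, KO 2 to 4 lay above WT 3 and WT 4 by 0.74 ± 0.05 on the log2 scale (edgeR adjusted p = 7.214e-10). In the lung-rich set KO 1 lay below WT 1 and WT 2, with a value of -0.95. The fold change differed between the sets by -1.62 ± 0.30 (lung-rich minus other; edgeR interaction, adjusted p = 0.01843).

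Alox5ap (ENSMUSG00000060063, chr5:149264767-149288153, plus strand) was at 119, 247, 254 and 258 CPM in KO 1 to 4, against 140, 141, 219 and 224 CPM in WT 1 to 4. All 3 lung-rich libraries lay below all 5 others, and KO 1 was the lowest. In the set-adjusted fit, which also holds genotype, the lung-rich set was lower by 0.84 on the log2 scale. The genotype difference was 0.28 ± 0.29 over all 8 libraries (edgeR adjusted p = 0.9629) and 0.04 ± 0.08 in the set-adjusted fit (edgeR adjusted p = 0.7862). In the 5 other libraries it was small but passed, at 0.19 ± 0.03 (edgeR adjusted p = 0.0001356), a Tgfbr2_KO mean of 114% of the WT mean. KO 1 stood at 84.4% of the mean of WT 1 and WT 2, and the sets differed (-0.44 ± 0.07; edgeR interaction, adjusted p = 0.00153).

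Lta4h and Ltc4s compete for leukotriene A4, and their transcripts behaved differently. Lta4h (ENSMUSG00000015889, chr10:93453411-93484875, plus strand), the source of leukotriene B4, was at 51.1, 49.1, 53.4 and 56.3 CPM in KO 1 to 4, against 44.1, 45.6, 53.0 and 51.8 CPM in WT 1 to 4. It varied least between libraries of the 10 genes relative to its mean, and its difference was 0.11 ± 0.08 over all 8 libraries (edgeR adjusted p = 0.826), 0.02 ± 0.06 in the 5 other libraries (edgeR adjusted p = 0.8663) and 0.12 in the lung-rich set. Ltc4s (ENSMUSG00000020377, chr11:50236461-50238616, minus strand), which makes the first cysteinyl leukotriene, was at 6.18, 18.5, 19.5 and 16.7 CPM in KO 1 to 4, against 4.91, 6.02, 8.05 and 7.93 CPM in WT 1 to 4. KO 2 to 4 lay above every WT library, whereas KO 1 lay between the WT libraries. An antisense gene, Gm26542, overlaps Ltc4s and was not analysed here, and without the strand setting its reads cannot be told apart from those of Ltc4s. The mean was 15.2 ± 6.12 CPM in Tgfbr2_KO libraries and 6.73 ± 1.53 CPM in WT libraries (SD, n = 4 each).

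The log2 fold change of Ltc4s over all 8 libraries was 1.17 ± 0.36, with a 95% interval of 0.33 to 2.02, and did not pass (edgeR adjusted p = 0.2725; unadjusted p = 0.0131; DESeq2 adjusted p = 0.08372). It rose by 0.86 ± 0.20 in the set-adjusted fit (edgeR adjusted p = 0.0222) and by 1.19 ± 0.10 in the 5 other libraries (edgeR adjusted p = 1.891e-08; 5.825e-06 with WT 3 and WT 4 summed). In those 5 libraries the Tgfbr2_KO mean was 228% of the WT mean, and in the lung-rich set KO 1 was at 113% of the mean of WT 1 and WT 2. The fold change differed between the sets by -1.02 ± 0.21 (edgeR interaction, adjusted p = 0.007326). The call in the set-adjusted fit was lost when KO 2, KO 3, KO 4, WT 3 or WT 4 was left out (edgeR adjusted p = 0.06837, 0.07416, 0.07223, 0.1348 and 0.1388), and with the set left out of the model Ltc4s passed once KO 1 was removed (1.43 ± 0.19, edgeR adjusted p = 0.007928, where 6.74% of genes were called). It was also lost without KO 4 and on WT 3 plus WT 4 as 1 library (0.72, edgeR adjusted p = 0.2413, with 1.37% of genes called). The ratio of Ltc4s to Lta4h per kilobase was 0.378, 1.17, 1.14 and 0.929 in KO 1 to 4, against 0.348, 0.412, 0.475 and 0.479 in WT 1 to 4. In the WT libraries, KO 1 and KO 4 the hydrolase transcript exceeded the synthase transcript, and in KO 2 and KO 3 it did not.

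Mast cells, basophils, eosinophils and platelets are other known sources of leukotriene C4 synthase or its product, so their markers were read beside Ltc4s. The summed CPM of 14 mast cell and basophil genes was 260, 24.2, 26.4 and 25.7 in KO 1 to 4, against 194, 140, 37.2 and 37.5 in WT 1 to 4, and was lowest in the libraries where Ltc4s was highest. Kit, Gata2 and Hdc, which other cells also express, made up most of this sum, while Cpa3, Fcer1a and Ms4a2, which define mast cells and basophils, stayed at or below 0.351 CPM in every library. The sum of 9 eosinophil genes was 3.34, 20.7, 81.8 and 52.4 CPM in KO 1 to 4, against 3.37, 2.94, 5.08 and 3.91 CPM in WT 1 to 4, and Alox15 made up most of it in KO 2 to 4, while Epx and Prg2, which define eosinophils, stayed at or below 0.25 CPM. The sum of 11 platelet genes was 258, 483, 491 and 498 CPM in KO 1 to 4, against 214, 190, 145 and 149 CPM in WT 1 to 4, and Pf4, which macrophages also express, made up most of it. Ppbp, the next most abundant, was at 12.7, 12.0, 8.92 and 9.68 CPM in KO 1 to 4, against 12.7, 9.18, 4.05 and 3.99 CPM in WT 1 to 4. In the 5 other libraries 2 of the 6 tested platelet genes were higher and 1 lower by edgeR, where 19.7% and 18.7% of all genes were. The part of these transcripts in the Ltc4s difference was not tested. In bulk RNA, fewer cells of a type and less RNA per cell cannot be told apart.

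Ptgs1 and Ptgs2 are the cyclooxygenases, which make prostaglandin H2. Ptgs1 (ENSMUSG00000047250, chr2:36230426-36252272, plus strand) was at 76.2, 107, 86.5 and 97.4 CPM in KO 1 to 4, against 83.1, 76.6, 78.1 and 80.1 CPM in WT 1 to 4. The WT libraries lay within a narrow range, and KO 2 to 4 lay above it while KO 1 lay below it. The difference was 0.21 ± 0.11 over all 8 libraries (edgeR adjusted p = 0.6033) and 0.30 ± 0.08 in the 5 other libraries, where it passed (edgeR adjusted p = 0.02713) but not with WT 3 and WT 4 summed, and in the lung-rich set it was -0.13. Ptgs2 (ENSMUSG00000032487, chr1:150100031-150108227, plus strand) was at 273, 457, 418 and 440 CPM in KO 1 to 4, against 422, 403, 463 and 461 CPM in WT 1 to 4. KO 1 stood well below the other 7 libraries, which spanned 403 to 463 CPM. The difference was -0.14 ± 0.17 over all 8 libraries (edgeR adjusted p = 1) and -0.07 ± 0.03 in the 5 other libraries (edgeR adjusted p = 0.1038). KO 1 was at 66.1% of the mean of WT 1 and WT 2, and the sets differed by -0.52 ± 0.08 (edgeR interaction, adjusted p = 0.00114). The ratio of Ptgs2 to Ptgs1 per kilobase was 2.30, 2.74, 3.11 and 2.91 in KO 1 to 4, against 3.27, 3.39, 3.82 and 3.70 in WT 1 to 4, so the inducible transcript exceeded the constitutive one in all 8 libraries and the ratio was lower in each Tgfbr2_KO library than in each WT library. This ratio was looked at after the values were seen and was not tested.

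The 3 terminal synthases of the prostanoid branch each had a pattern of their own. Ptges (ENSMUSG00000050737, chr2:30889471-30929863, minus strand) was at 17.7, 1.04, 1.48 and 1.81 CPM in KO 1 to 4, against 11.2, 10.9, 1.95 and 2.11 CPM in WT 1 to 4. It was the sole gene of the 10 that was higher in each lung-rich library than in each other library, which 28.1% of all genes were. In the set-adjusted fit, which also holds genotype, the lung-rich set was higher by 2.98 on the log2 scale. The genotype difference was -0.24 ± 1.10 over all 8 libraries (edgeR adjusted p = 1) and turned to 0.08 ± 0.26 in the set-adjusted fit (edgeR adjusted p = 0.8647). Ptges had a value of -0.51 ± 0.29 among KO 2 to 4, WT 3 and WT 4 (edgeR adjusted p = 0.1794), and of 0.61 in the lung-rich set. Ptges shared this pattern with markers of other lung cells: the sum of 15 epithelial genes was 6030, 209, 283 and 252 CPM in KO 1 to 4, against 3830, 3370, 321 and 326 CPM in WT 1 to 4. The sums of 14 endothelial genes (252 to 6600 CPM in KO libraries, 337 to 4460 CPM in WT libraries) and 13 fibroblast genes (118 to 1480 CPM and 140 to 944 CPM) had the same order of sets, and no marker of these 3 lists was at 0 in all libraries. The part of those cells in the Ptges values was not tested. A pseudogene, Gm13400, overlaps Ptges on the same strand and is not among the genes used here.

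Hpgds (ENSMUSG00000029919, chr6:65117293-65144908, minus strand), whose product makes prostaglandin D2, was at 63.4, 151, 137 and 147 CPM in KO 1 to 4, against 121, 120, 148 and 148 CPM in WT 1 to 4. Outside KO 1 the 7 libraries spanned 120 to 151 CPM, and KO 1 was at 52.7% of the mean of WT 1 and WT 2. The difference was -0.11 ± 0.26 over all 8 libraries (edgeR adjusted p = 1) and -0.03 ± 0.04 in the 5 other libraries (edgeR adjusted p = 0.6505). The sets differed by -0.90 ± 0.08 (edgeR interaction, adjusted p = 6.819e-05). The ratio of Hpgds to Ptges per kilobase was 3.77, 152, 97.3 and 85.0 in KO 1 to 4, against 11.3, 11.6, 79.5 and 73.8 in WT 1 to 4. The prostaglandin D synthase transcript exceeded the inducible prostaglandin E synthase transcript in every library, and the excess was smallest in the lung-rich libraries.

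Tbxas1 (ENSMUSG00000029925, chr6:38875404-39084585, plus strand) was at 85.3, 195, 168 and 183 CPM in KO 1 to 4, against 124, 141, 223 and 223 CPM in WT 1 to 4. Over all 8 libraries the groups overlapped, and within each set each Tgfbr2_KO library lay below each WT library. The difference was -0.17 ± 0.31 over all 8 libraries (edgeR adjusted p = 1). Tbxas1 fell by 0.41 ± 0.09 on the log2 scale in the set-adjusted fit (edgeR adjusted p = 0.01516) and by 0.29 ± 0.05 in the 5 other libraries (edgeR adjusted p = 0.0005856; 0.01257 with WT 3 and WT 4 summed). KO 1 was at 64.3% of the mean of WT 1 and WT 2 and the other Tgfbr2_KO mean at 81.7% of its WT mean, and the difference between the sets did not pass (-0.35, edgeR adjusted p = 0.06608). The call in the set-adjusted fit was lost when KO 3 was left out (edgeR adjusted p = 0.05364), and without KO 4 and on WT 3 plus WT 4 as 1 library (-0.49, edgeR adjusted p = 0.1203). The first part of Tbxas1 overlaps Hipk2, a kinase gene on the opposite strand, which was at 106, 92.0, 89.5 and 88.2 CPM in KO 1 to 4 and at 96.1, 94.9, 107 and 107 CPM in WT 1 to 4. The kit was stranded, but no source used here gives the strand setting of the counting. Alveolar macrophages are another cell type that expresses genes of this pathway. The summed CPM of 14 of their markers was 1020, 2270, 2190 and 2230 in KO 1 to 4, against 1140, 1510, 3320 and 3360 in WT 1 to 4, lower in Tgfbr2_KO libraries within each set as Tbxas1 and Pla2g4a were. Of the 12 that were tested, 9 were lower and 2 higher in the 5 other libraries, against 18.7% and 19.7% of all genes there. Chil3, a chitinase-like protein abundant in alveolar macrophages, is also among the monocyte genes summed below. It was at 20.4, 16.5, 17.6 and 15.8 CPM in KO 1 to 4, against 17.5, 30.0, 348 and 347 CPM in WT 1 to 4. Plet1 was at 4.17, 1.21, 2.4 and 1.21 CPM in KO 1 to 4, against 3.13, 6.54, 24.5 and 26.6 CPM in WT 1 to 4. Both were thus far higher in WT 3 and WT 4 than in KO 2 to 4. Itgax, the CD11c integrin chain, was at 183, 371, 387 and 379 CPM in KO 1 to 4, against 280, 450, 900 and 892 CPM in WT 1 to 4. Siglecf, a defining surface lectin, was low, at 1.02 to 2.29 CPM in Tgfbr2_KO libraries and 1.48 to 5.15 CPM in WT libraries. Fabp4 went the other way, at 5.54 to 9.79 CPM in Tgfbr2_KO libraries and 2.21 to 3.16 CPM in WT libraries. So did the scavenger receptor Marco, at 0.542 to 1.22 CPM in Tgfbr2_KO libraries and 0.197 to 0.615 CPM in WT libraries. Il1rn and Ccl6, the most abundant of the 14, differed less. Il1rn was at 881 to 947 CPM in KO 2 to 4, against 954 and 981 CPM in WT 3 and WT 4. Ccl6 was at 741 to 794 CPM in KO 2 to 4, against 912 and 921 CPM in WT 3 and WT 4. None of the 14 was at 0 throughout, and their part in the values of Tbxas1 and Pla2g4a was not tested.

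**Figure D3:**
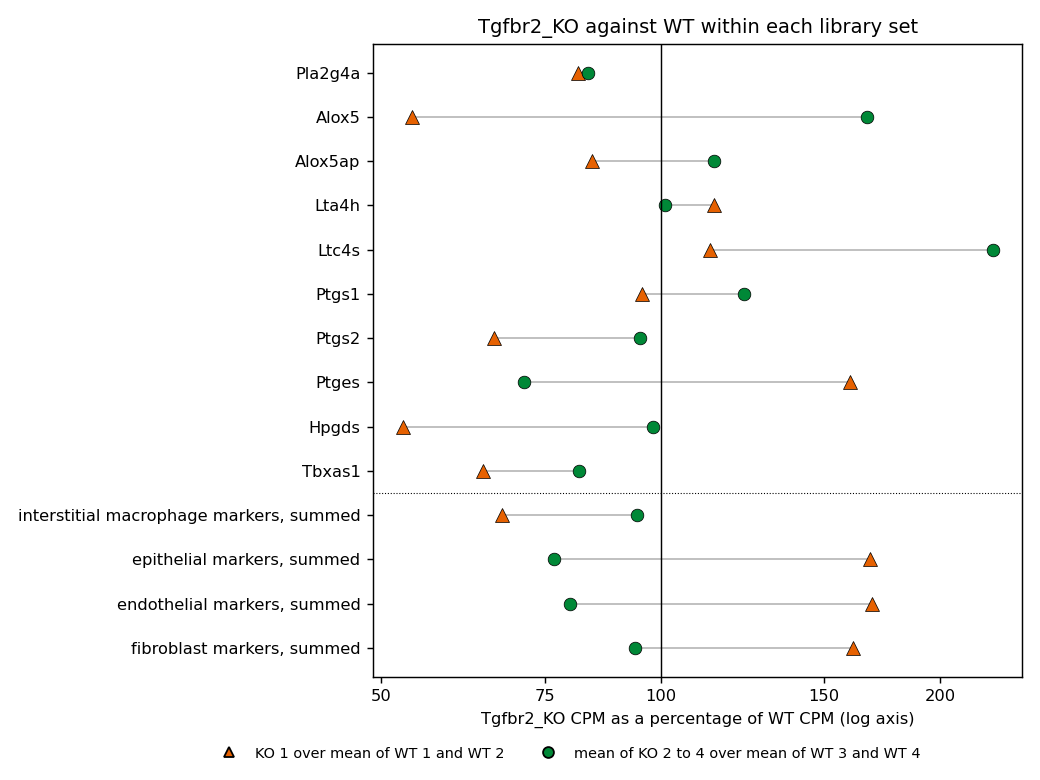
Tgfbr2_KO CPM as a percentage of WT CPM within the lung-rich libraries (triangles) and within the other 5 (circles), on a log axis, for the 10 genes above the dotted line and 4 summed marker lists below it. Epithelial, endothelial and fibroblast sums stand at 161% to 169% in the lung-rich set, and the interstitial macrophage sum at 67.4%. The 10 genes run there from 52.7% (Hpgds) to 160% (Ptges). Alox5 and Tbxas1 stand at 54.0% and 64.3%, and Ltc4s and Lta4h at 113% and 114%.

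The genotype difference depended on the library set for 6 of the 10 genes by the edgeR interaction test, where 18.9% of all genes passed it. For 5 of these (Ltc4s, Alox5, Alox5ap, Ptgs2 and Hpgds) the fold change was lower in the lung-rich set, and for Ptges it was higher (1.20 ± 0.30, edgeR adjusted p = 0.01969). The lung-rich set holds a lone Tgfbr2_KO library, KO 1, whose variation is assumed in this test to be like that of the other groups, so each of these values rests on KO 1. In the lung-rich set KO 1 lay below both WT libraries for 7 of the 10 genes and above them for 3 (Ltc4s, Lta4h and Ptges), against 32.8% and 46.4% of all genes. The values furthest below 0 were -0.99 for Hpgds, -0.95 for Alox5, -0.70 for Tbxas1 and -0.66 for Ptgs2 on the log2 scale. They are given without a test. The median value of KO 1 against WT 1 and WT 2 was -0.33 on the log2 scale for the 10 genes and -0.0002053 over all genes. Beside this, the interstitial macrophage markers summed to 67.4% in KO 1 of the mean of WT 1 and WT 2, and the epithelial and endothelial markers to 168% and 169%. In the 5 other libraries the same sums were 94.2%, 76.7% and 79.9% of their WT means. The part of these shares in the values of the 10 genes was not tested.

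Counted by overlap, 4 genes (Ltc4s, Alox5, Alox5ap and Ptgs1) were higher in each of KO 2 to 4 than in WT 3 and WT 4, and 4 (Ptgs2, Ptges, Pla2g4a and Tbxas1) were lower, against 29.0% and 30.2% of all genes. In both library sets at once, Ltc4s was above, and Ptgs2, Pla2g4a and Tbxas1 were below, against 14.8% and 13.6% of all genes. Between the sets, 5 genes (Ltc4s, Alox5ap, Hpgds, Pla2g4a and Tbxas1) were lower in each lung-rich library than in each other library, against 23.1% of all genes. Across the 8 libraries, which share the split into sets, log2 CPM of Ptgs2 and Hpgds had a Pearson r of 0.988 and those of Pla2g4a and Tbxas1 one of 0.937, while Alox5ap and Ptges had an r of -0.984.

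The rest of the pathway was read from 4 lists of 75 genes, of which 73 were in the table and 56 were tested. Over all 8 libraries 0 of the 56 passed by edgeR, against 0.298% of all genes, with 6 at an unadjusted p under 0.05. By limma voom 0 were called, against 0.251% of all genes. DESeq2 called 3 higher and 2 lower of 59 (5.08% and 3.39%), where 3.39% of its tested genes were called in both directions together. In the set-adjusted fit 6 were higher and 9 lower (10.7% and 16.1% of the 56), against 8.59% and 7.89% of all genes in that fit. Within the other set 12 were higher and 15 lower of 54 (22.2% and 27.8%), against 19.7% and 18.7% of all genes. Left-out libraries were run for the 10 genes above and not for these. Among genes of arachidonic acid release, return and activation, 1 was higher and 7 were lower of 20 in the set-adjusted fit, read against the same 8.59% and 7.89%. Pla2g2d, a secreted phospholipase A2, was at 41.3, 79.9, 113 and 99.3 CPM in KO 1 to 4, against 24.7, 34.7, 24.6 and 24.0 CPM in WT 1 to 4. Each Tgfbr2_KO library exceeded each WT library, and it rose by 1.48 ± 0.32 in the set-adjusted fit (edgeR adjusted p = 0.01835), though not over all 8 libraries (1.63, edgeR adjusted p = 0.1076). Lpcat2, which puts fatty acid back into lysophospholipids and also makes platelet-activating factor, was at 62.8, 114, 112 and 117 CPM in KO 1 to 4, against 132, 161, 268 and 269 CPM in WT 1 to 4. Each Tgfbr2_KO library was below each WT library, and it fell by 1.23 ± 0.07 in the set-adjusted fit (edgeR adjusted p = 0.0001095), with values of -1.29 in the lung-rich set and -1.23 in the other. Smaller falls in the set-adjusted fit were those of Lpcat3, an arachidonoyl transferase (-0.28, edgeR adjusted p = 0.01146), Dagla, a diacylglycerol lipase (-0.32, edgeR adjusted p = 0.03734), Pla2g15, the lysosomal phospholipase (-0.42, edgeR adjusted p = 0.004357), and Anxa1, a protein known to restrain phospholipase A2 (-0.29, edgeR adjusted p = 0.01035). Pla2g7, which breaks down platelet-activating factor, and Abhd12 were the other 2 that fell.

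Among other lipoxygenases and genes of leukotriene handling, 1 was higher and 2 were lower of 12 in the set-adjusted fit, where 8.59% and 7.89% of all genes were. Alox15, the 12/15-lipoxygenase, was at 0.959, 16.7, 79.4 and 50.0 CPM in KO 1 to 4, against 1.24, 0.439, 2.62 and 2.08 CPM in WT 1 to 4. KO 2 to 4 were high and differed several-fold among themselves, while KO 1 was within the range of the WT libraries. It rose by 3.75 ± 0.88 in the set-adjusted fit (edgeR adjusted p = 0.02625), but did not pass over all 8 libraries (4.52, edgeR adjusted p = 0.2201) or in the 5 other libraries (4.40, edgeR adjusted p = 0.06997). Cyp4f18, which inactivates leukotriene B4, was at 41.3, 81.7, 80.3 and 82.7 CPM in KO 1 to 4, against 56.1, 80.8, 172 and 178 CPM in WT 1 to 4. It fell by 0.97 ± 0.12 in the set-adjusted fit (edgeR adjusted p = 0.002237). Cotl1, an actin-binding protein that binds 5-lipoxygenase, fell by 0.36 ± 0.07 (edgeR adjusted p = 0.01252). Ggt5, which cleaves leukotriene C4 to leukotriene D4, did not pass over all 8 libraries (0.50, edgeR adjusted p = 0.561) or in the set-adjusted fit (0.31, edgeR adjusted p = 0.09981), and was higher in the 5 other libraries (0.47 ± 0.08, edgeR adjusted p = 0.0001205).

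Of 14 other prostanoid genes, 4 were higher and 0 lower in the set-adjusted fit, where 8.59% and 7.89% of all genes were. Counted in the 5 other libraries, 5 were higher and 3 lower of the 14, against 19.7% and 18.7%. Cbr2, a carbonyl reductase of lung, was at 266, 422, 378 and 402 CPM in KO 1 to 4, against 169, 123, 54.8 and 58.4 CPM in WT 1 to 4. Each Tgfbr2_KO library exceeded each WT library, and it rose by 2.17 ± 0.39 (edgeR adjusted p = 0.01018; 0.1388 in the fit of all 8 libraries by genotype alone). Akr1b8, an aldo-keto reductase, rose by 1.00 ± 0.20 (edgeR adjusted p = 0.01237) and Ptgis, prostacyclin synthase, was the last to pass (edgeR adjusted p = 0.04884). Ptgis was at 22.1, 2.62, 4.54 and 4.84 CPM in KO 1 to 4, against 16, 13, 2.36 and 1.32 CPM in WT 1 to 4. As with Ptges, each lung-rich library was above each other library. Hpgd, the dehydrogenase that inactivates prostaglandins, was at 379, 90.9, 89.6 and 86.1 CPM in KO 1 to 4, against 329, 228, 56.4 and 55.7 CPM in WT 1 to 4. Like Ptges it was high in the lung-rich libraries, and within each set the Tgfbr2_KO libraries were above the WT libraries (0.58 ± 0.11 in the set-adjusted fit, edgeR adjusted p = 0.01257). Ptges2, another prostaglandin E synthase, did not pass over all 8 libraries (-0.21, edgeR adjusted p = 0.8061). Of 10 tested receptors 0 passed in the set-adjusted fit by edgeR, with 1 at an unadjusted p under 0.05, and over all 8 libraries DESeq2 and limma voom also called 0. In the 5 other libraries 2 of 9 receptors were higher, near the 19.7% of all genes: Ptger4, a prostaglandin E2 receptor (0.61, edgeR adjusted p = 3.305e-10), and Cysltr1, a receptor for cysteinyl leukotrienes (0.30, edgeR adjusted p = 6.223e-05). Cysltr1 was at 38.8, 79.6, 73.7 and 73.9 CPM in KO 1 to 4, against 59.5, 47.0, 60.2 and 62.7 CPM in WT 1 to 4, with KO 1 again the lowest.

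**Figure D4:**
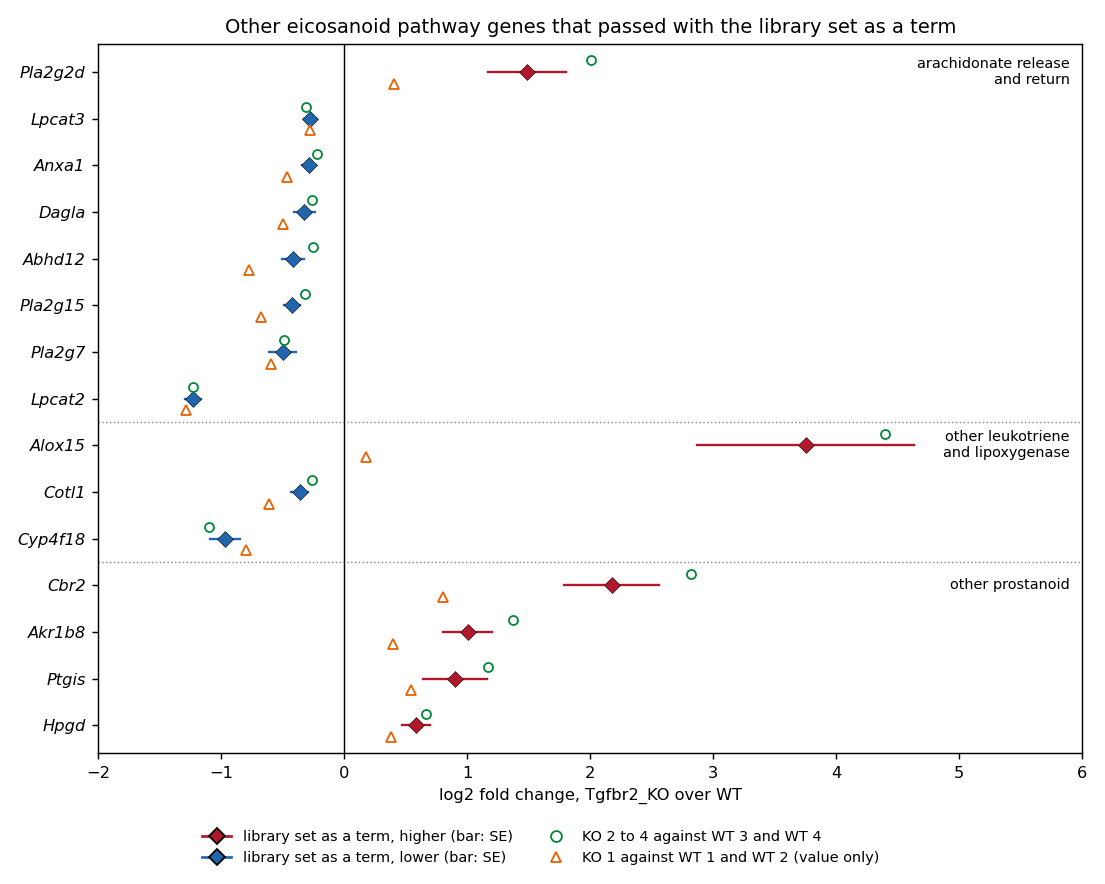
Log2 fold change, Tgfbr2_KO over WT, of the 15 other pathway genes that passed in the set-adjusted fit (diamonds, bars are SE), with the values within the 5 other libraries (circles) and within the lung-rich libraries (triangles). Lpcat2 has nearly the same value in both sets, -1.23 and -1.29, whereas Alox15 stands at 4.40 in the other 5 libraries and at 0.18 in the lung-rich set.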

How the data were processed

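The deposited table holds salmon estimated counts, merged per gene by the authors, per the file headers. Its values are not scaled for library size, and 81.8% to 84.8% of each library's values were whole. The submitters' processing notes name GRCm38 and DESeq2 1.40.1. None of the sources used here gives the version of salmon, its annotation, its strand setting or any filter. RNA extraction used TRIzol and library preparation a stranded mRNA kit, per the labels' protocols. Counts summed to 15597300 to 37654100 per library, over the 22597 genes of the table.

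After rounding, the counts were fitted with edgeR 4.0.16 in R 4.3.3 (filterByExpr with a minimum count of 10 and a minimum total of 15, TMM, robust quasi-likelihood F-test, Benjamini-Hochberg adjustment over all genes tested, threshold 0.05), on the whole table. Group means have standard deviations (SD) and fold changes standard errors (SE). DESeq2 1.42.0 and limma voom 3.58.1 were alternatives, with other scalings, filters, the library set as a term, a replicate block and each library left out. Gene positions and transcript lengths are those of GENCODE M21 (GRCm38), and promoter sequences those of RefSeq (GRCm38.p6). Recovery was tested on simulated data.

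The 10 genes, the pathway and marker lists and the library sets were chosen with earlier results of these data known. Named beside the 10 genes are up to 3 genes of each pathway list with the smallest adjusted p over all 8 libraries and up to 3 with the set as a term, the most abundant markers, Sftpc, Tgfbr2, Lyz2, and the 3 genes most like each of the 10. Pla2g7, Abhd12, Ptgis and Fabp4 were named after their values were seen, as were the defining markers. A gene that the rule names is not reported here.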

Additional observations from a re-analysis of the deposited data

Results flagged for a closer look

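For 4 genes there was a library far from the other 3 of its group, by a rule that chance meets in about 1 in 20 groups and that was met in 4 of 20 here. KO 1 stood apart from KO 2 to 4 for Alox5ap, at 119 CPM, for Ptges, at 17.7 CPM, and for Hpgds, at 63.4 CPM. WT 1 stood apart from WT 2 to 4 for Alox5, at 124 CPM.

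For 6 genes the genotype difference was not the same in the lung-rich libraries as in the other 5 by the edgeR interaction test. Of all genes tested, 18.9% passed that test, with either sign, so such a difference is not particular to these genes. The log2 fold change in the lung-rich set minus that in the other was -1.02 for Ltc4s, -1.62 for Alox5, -0.44 for Alox5ap, -0.52 for Ptgs2, 1.20 for Ptges and -0.90 for Hpgds. KO 1 is the sole Tgfbr2_KO library of the lung-rich set, so all 6 values rest on it.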

How the results depend on the processing

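Of the 10 genes, 0 were called over all 8 libraries, where 0.298% of all genes were. The count was also 0 with each other scaling, filter and tool, and without robust estimation. DESeq2 called 3.39% of its tested genes and limma voom 0.251%. With WT 3 and WT 4 summed 0 of the 10 were called. That fit called 0 of all 13472 genes tested, so it cannot show whether the result held. In the set-adjusted fit 2 were called, where 8.59% of all genes were called higher and 7.89% lower. In the 5 other libraries 6 were called, against 19.7% of all genes higher and 18.7% lower. With WT 3 and WT 4 summed there, 5 were called, against 13.4% and 12.9%. In the lung-rich libraries a lone Tgfbr2_KO library leaves a fit little to estimate the spread from, so no calls are counted there. Leaving out each library in turn gave 0 to 1 calls without the set, the 1 without KO 1, where 6.74% of all genes were called. With the set it gave 0 to 6, the 6 coming without KO 1. The share of all genes called was not counted for these set-adjusted fits, so the 6 cannot be set against a background.

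Some fold changes changed sign, and the cause was not tested. In the lung-rich libraries alone the value was -0.95 for Alox5, -0.31 for Alox5ap, -0.13 for Ptgs1 and 0.61 for Ptges. In the set-adjusted fit on WT 3 plus WT 4 as 1 library and without KO 4 it was -0.10 for Alox5, -0.065 for Alox5ap and 0.078 for Ptges. Ptges was at 0.080 in the set-adjusted fit and at 0.12 with the replicate block as well. Leaving out each library in turn, by genotype alone, the value lay between -0.22 and 0.0030 for Ptgs2, -2.18 and 0.15 for Ptges, -0.21 and 0.11 for Hpgds, -0.25 and 0.028 for Pla2g4a, and -0.31 and 0.035 for Tbxas1, with the upper end reached without KO 1 for all of these but Ptges. In the set-adjusted fit the range was -0.071 to 0.74 for Alox5, -0.051 to 0.19 for Alox5ap and -0.52 to 0.24 for Ptges, with the upper end reached without KO 1 for Alox5 and Alox5ap. Without KO 1, Ptges stood at its lowest in both fits. Single values below 0 in the set-adjusted fit were -0.071 and -0.051 for Alox5 without WT 3 and WT 4, and -0.0059, -0.0083, -0.051 and -0.031 for Alox5ap without KO 3, KO 4, WT 3 and WT 4. Those above 0 for Ptges were 0.21, 0.096, 0.032, 0.12 and 0.24 without KO 2, KO 3, KO 4, WT 3 and WT 4. Of 310 values of the 10 genes under the alternatives, 248 kept their direction and side of the threshold, 33 kept their direction and passed where they had not, and 29 changed sign.

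Same-numbered libraries of the 2 groups did not deviate together throughout (r of 0.867, -0.794, 0.694 and 0.753 across genes, for numbers 1 to 4). KO 1 was close to both WT 1 and WT 2 (r of 0.867 and 0.88). These correlations follow the library sets, so they cannot show whether same-numbered libraries were handled as pairs. With the replicate block 0 of 10 genes were called, but that fit called 0 of all 12750 genes tested, so it says nothing particular of these 10. With the block and the library set 0 of 10 were called (Ltc4s 0.92, edgeR adjusted p = 0.1217), where 0.855% of all genes were. The limits are few libraries, a split of libraries that is unevenly spread over the genotypes, and 1 Tgfbr2_KO library in the lung-rich set. In the other set the WT pair differed little more than counting noise (1.87 times it), against 2.06 to 3.07 times among KO 2 to 4. When WT 3 and WT 4 were summed in that set, KO 2 to 4 still counted as separate libraries. Depth was not limiting for the 10 genes except Ptges, which was at 1.04 to 2.11 CPM in the 5 other libraries, where 3 counts are 0.08438 to 0.165 CPM. Counting intervals and floors cover counting error only.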

Other observations

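For each of the 10 genes, the 3 genes with the highest Pearson r of log2 CPM over the 8 libraries, among those with a mean of at least 10 CPM, were found. They are given as a description, since the 8 points share the split into library sets, and so many genes were searched that high values arise readily. Ltc4s was most like Ebi3, a cytokine subunit (r = 0.995), Cd300ld and Cd300ld4, receptors of the Cd300 family (0.994 each). Alox5 was most like Nfkbid, an atypical inhibitor of NF-κB (0.993), Spred1 and Atf4. Alox5ap was most like Wnt11 (0.998), Hfe and Mcub. Lta4h had the lowest best match, P2ry2, a nucleotide receptor (0.950).

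The cyclooxygenases differed in their nearest genes. Ptgs1 was most like Mcm6 (0.983) and Mcm2 (0.980), which encode subunits of the replicative helicase, and Srcap. Ptgs2 was most like Tmem135 (0.993), Ncl and Kansl1. Ptges was most like Gucy1a1, Ltbp2 and Car2 (0.997 each). Hpgds was most like Slc7a8 and Slc15a4 (0.993 each) and Sh3bp2, Pla2g4a most like Cox8a (0.986), Ctnnbl1 and Phb2, and Tbxas1 like Lgmn and Mag (0.996 each).

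Pla2g4a and Ptgs2 are neighbours on chromosome 1, with 138.7 kb and 0 coding genes between them. Within the lung-rich set KO 1 was at 81.5% of the WT mean for Pla2g4a and 66.1% for Ptgs2, and in the other set the Tgfbr2_KO means were at 83.5% and 94.9%. Lyz2, the gene that holds Cre, was at 3440, 5610, 5450 and 5540 CPM in KO 1 to 4, against 7280, 8260, 12900 and 13200 CPM in WT 1 to 4.

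Sums of marker genes of other leukocytes were also read. The lymphocyte sum was higher in each lung-rich library (40.6 to 70.8 CPM) than in each other library (14.1 to 18.3 CPM). Sums of neutrophil, dendritic cell and monocyte genes overlapped between the library sets. The sum of 12 neutrophil genes was 51.8, 41.0, 39.9 and 42.2 CPM in KO 1 to 4, against 51.1, 38.2, 81.3 and 79.9 CPM in WT 1 to 4, with Elane at 0 in all. In the 5 other libraries 0 of the 9 tested were higher and 6 lower, where 19.7% and 18.7% of all genes were. The sum of 10 dendritic cell genes was 159, 188, 185 and 186 CPM in KO 1 to 4, against 169, 154, 126 and 128 CPM in WT 1 to 4, and in the 5 other libraries 6 of the 9 tested were higher and 1 lower. Sums were 1940 to 2570 CPM in Tgfbr2_KO libraries and 2130 to 2610 CPM in WT libraries for 12 monocyte genes, with 3 of 12 higher and 2 lower in the 5 other libraries. For 12 lymphocyte genes they were 17.7 to 70.8 CPM in Tgfbr2_KO libraries and 14.1 to 54.3 CPM in WT libraries, with 2 of 6 higher and 0 lower there by edgeR and 3 at an unadjusted p under 0.05. The part of these cells in the values of the 10 genes was not tested.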
